A study of Mus musculus with 6 samples.

Results

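The colony stimulating factors (CSFs) and their receptors were examined in mouse microglia that had been co-cultured with neutrophils with or without Cd177. The 9 genes are the 4 ligand genes Csf1, Il34, Csf2 and Csf3 and the 5 receptor chain genes Csf1r, Csf2ra, Csf2rb, Csf2rb2 and Csf3r, out of 55335 genes in the table. They were chosen by family membership, and the family was selected with the KO and WT values of these same libraries known, so the values of the 9 genes are given as a description without p-values. Levels are FPKM (fragments per kilobase of transcript, relative to 1e+06 mapped ones), and 7 of the 9 averaged 1 FPKM or more across the 6 libraries and entered the fit.

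The microglia were primary cells of Cd177 WT genotype from brains of neonatal C57BL/6 mice, detached by shaking on day 14 of culture. Neutrophils were isolated with magnetic beads from the spinal cord lesion at 3 days post injury (dpi), from male Cd177 WT mice (WT group, n = 3 libraries) or male Cd177 KO (Cd177-/-) mice (KO group, n = 3 libraries), and were kept with the microglia for 24 h. Both groups therefore received neutrophils from injured cords, and no library of microglia alone was analysed here. After co-culture, Ly6G-negative cells were sorted by FACS as microglia. The sources used here do not say whether the 3 libraries of a group came from separate cultures or donors, or how many mice were pooled, so the spread between them may be technical.

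CSFs are secreted proteins that control survival, proliferation and activation of myeloid cells. M-CSF, encoded by Csf1, and IL-34 are alternative ligands of the receptor tyrosine kinase CSF1R, on which microglia depend for survival. GM-CSF, encoded by Csf2, signals through an alpha chain (Csf2ra) and the common beta chain (Csf2rb), which IL-3 and IL-5 receptors also use. Csf2rb2 encodes a closely related mouse beta chain that serves IL-3. G-CSF, encoded by Csf3, acts on CSF3R, the main growth factor receptor of the neutrophil lineage.

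Transcripts of both inflammatory CSFs were listed at 0 in every KO library and were present in every WT library. In the KO group Csf1 was lower, whereas Csf1r and both beta chains were higher, and Il34 and Csf2ra overlapped between the groups. No library of one group overlapped the other for 7 of the 9 genes, 4 lower and 3 higher in KO. Of the 7 genes that entered the fit, 5 did not overlap. Csf3 is among these 5 and passed the filter only through WT, so its separation is no support for this count. Among all 11395 genes tested, 6363 (55.8%) did not overlap, 4930 (43.3%) were called at an adjusted p under 0.05 (limma, Benjamini-Hochberg), 2789 (24.5%) rose and 2141 (18.8%) fell, and these shares are the background for each count given here. With libraries brought to equal sums (TPM scale), 2183 rose and 2659 fell.

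**Figure D1:**
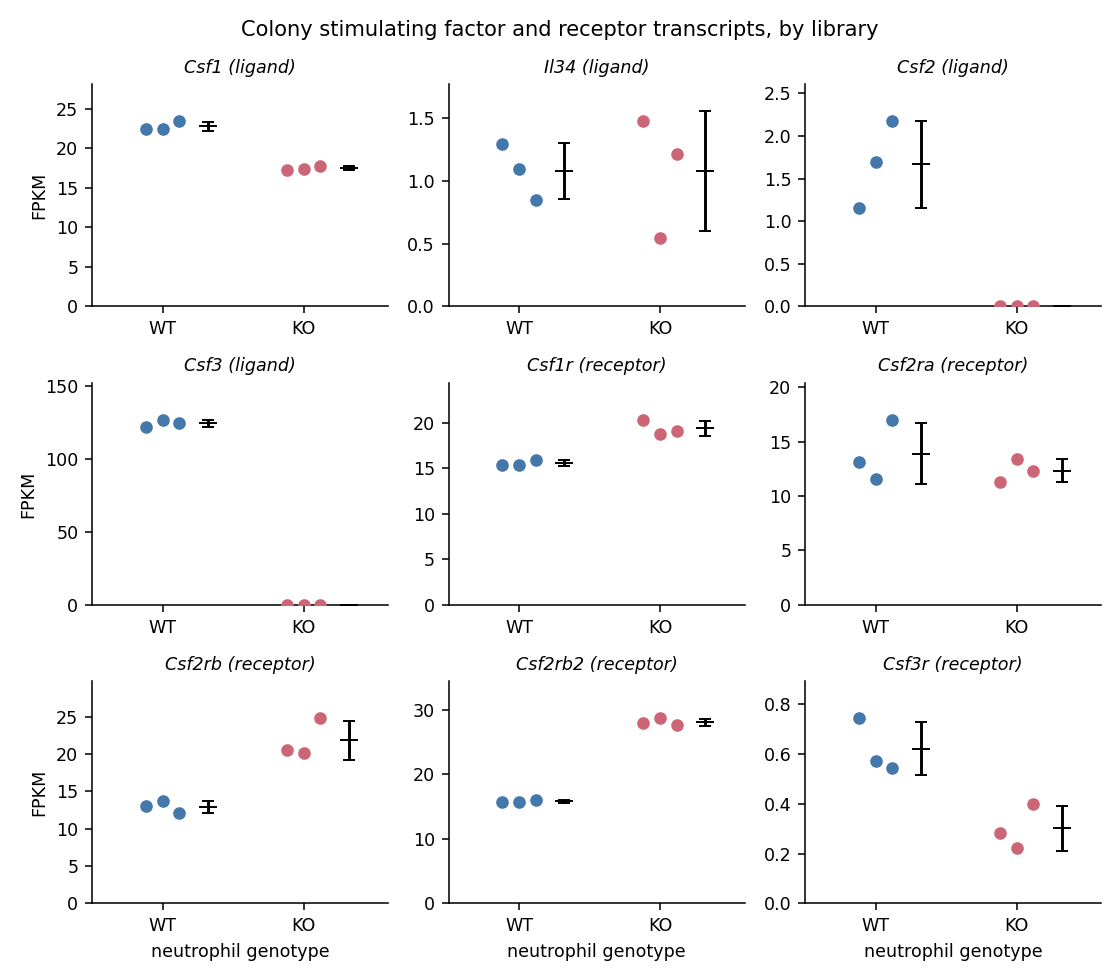
FPKM of the 9 genes in each library (points, 3 WT and 3 KO), with the mean and SD of each group beside them. The vertical axis starts at 0 and differs between panels. Csf3 and Csf2 are listed at 0 in all 3 KO libraries, and Il34 and Csf2ra overlap between the groups.

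Markers of the sorted cells were examined first, since bulk RNA cannot tell fewer cells of a type from less RNA per cell. All 12 of 12 macrophage lineage markers shared by microglia averaged at least 1 FPKM. Of 15 microglia markers 3 did so, Cx3cr1 and Trem2 among them, and Sall1, Fcrls and C1qa were listed at 0 in all 6 libraries. Cx3cr1 was at 2.82, 2.98 and 2.41 FPKM in WT and 1.04, 1.43 and 0.956 FPKM in KO libraries, and Trem2 at 11.2, 13.2 and 11.8 FPKM in WT and 27.5, 28.1 and 28.2 FPKM in KO libraries. These microglia markers thus differed between the groups in opposite directions. Of 16 neutrophil markers, 7 were listed at 0 in all 6 libraries, namely S100a9, Ly6g, Mpo, Elane, Ltf, Retnlg and Stfa2l1. Cd177, the gene deleted in the KO neutrophils, was at 0.477, 0.113 and 0.151 FPKM in WT and 0.109, 0.0217 and 0.0845 FPKM in KO libraries, which does not check the labels because the sequenced cells were sorted away from neutrophils. Summed markers of astrocytes, oligodendrocyte lineage, fibroblasts and T and B cells stayed at or under 0.512 FPKM in every library. The endothelial list summed to 9.62 to 10.4 FPKM in WT and 7.69 to 7.87 FPKM in KO libraries, and to 0.0403 to 0.0928 and 0.0558 to 0.0831 FPKM without Flt1.

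Csf3 (ENSMUSG00000038067, chr11:98701263-98703629, plus strand, GRCm38) encodes G-CSF, which drives production and release of neutrophils. It was at 122, 127 and 125 FPKM in the WT libraries (125 ± 2.28, SD, n = 3) and listed at 0 in all 3 KO libraries. The groups were fully separated, and Csf3 was the highest of the 9 genes in WT. A value of exactly 0 in a table without counts can be a failed estimate as well as an absence of reads, and the table does not tell these apart. C1qa, a microglia marker, and the MHC class II genes H2-Aa, H2-Ab1 and H2-Eb1 were also listed at 0 in all 6 libraries, while Cd74, the class II invariant chain, was at 27.3 to 58.0 FPKM. The zeros of Csf3 and Csf2 in KO carry this limit wherever they are used. Csf3 passed the filter only through WT. Of the 11395 genes tested 2 were listed at 0 in every KO library, Csf3 and Gm14275 (WT mean 8.88 FPKM), and 2 in every WT library, Epo and Gm6977, of which all but Csf3 are named after their values were seen. The filter keeps this count low, since genes at 0 in one group and low in the other, such as Csf2, were not tested. No fold is given against a group at 0. The fitted log2 difference was -6.97 on the log2(FPKM + 1) scale and -10.29 with a pseudocount of 0.1, so its size depends on the pseudocount.

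The summed neutrophil markers moved with Csf3, at 118 to 122 FPKM in WT and 1.56 to 2.35 FPKM in KO libraries. Nearly all of the WT sum was Lcn2 and Mmp9. Without these genes the sum was 1.52 to 1.63 FPKM in WT and 0.74 to 0.983 FPKM in KO libraries. Ly6g and S100a9 were listed at 0 in every library, with the limit on zeros just given. The part of neutrophil RNA in the Csf3 values was not tested.

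The genes closest to Csf3 in level and pattern were Lcn2 and Cxcl2, by the Euclidean distance of log2(FPKM + 1) over the 6 libraries. Lcn2, which encodes the siderophore-binding protein lipocalin-2, lay at a distance of 0.59, with 109, 113 and 109 FPKM in WT and 0.0479, 0.314 and 0.237 FPKM in KO libraries. Cxcl2, a neutrophil-attracting chemokine, lay at 1.17, with 119, 120 and 124 FPKM in WT and 0.547, 0.581 and 0.661 FPKM in KO libraries. Both were under 1 FPKM in every KO library.

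The expressed genes on either side of Csf3 changed far less. Med24, a Mediator subunit gene 0.962 kb away, fell from 9.14 to 6.40 FPKM (log2 difference -0.46, SE 0.051, adjusted p = 0.00073, limma). Psmd3, a proteasome subunit gene 5.28 kb away, fell from 28.1 to 24.9 FPKM (-0.17, SE 0.05, adjusted p = 0.0348, limma), a call that was lost without a filter on low values and without any 1 of the 3 WT libraries. Without KO replicate 1 its difference was -0.11. Over the 15 nearest tested neighbours of the 9 genes, 3 rose, 8 fell and 4 were not called, with a median log2 difference of -0.18 against 0.02 for all genes tested.

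Csf2 (ENSMUSG00000018916, chr11:54247271-54249667, minus strand, GRCm38) encodes GM-CSF, a growth and activating factor of macrophages and granulocytes. It was at 1.15, 1.69 and 2.17 FPKM in WT (1.67 ± 0.51, SD, n = 3) and listed at 0 in all 3 KO libraries. WT libraries were all above KO, but the level was low and the mean over 6 libraries missed the filter, so no fitted value is given. The spread among WT libraries was wide relative to Csf3. Its exons overlap those of Gm12223 on the opposite strand, and whether the libraries kept strand is not stated.

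The depth is not given in the table, and exact fragment numbers were not recovered, so only rough estimates can be given. Steps between low values gave 15.69 to 19.27 fragments per library, in units of 1e+06, if a step is 1 read of a pair, and 31.38 to 38.54 if it is 1 fragment. On these depths Csf2 would rest on about 16 to 28 or 31 to 56 fragments per WT library, and Csf3 on 2810 to 2944 or 5621 to 5889. A floor of 3 fragments in the KO libraries would be 0.195 to 0.234 or 0.0973 to 0.117 FPKM for Csf2 and 0.11 to 0.133 or 0.0551 to 0.0663 FPKM for Csf3. These estimates cover counting error only and say nothing of whether a listed 0 is a failed estimate.

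Csf2 and Csf3 share a feature that the choice of genes did not use, the AU-rich pentamer ATTTA in the 3′ UTR, a known signal for mRNA decay. Csf2 held 9 copies in 317 bases (28.39 per kb) and Csf3 held 6 copies in 669 bases (8.97 per kb), against a median of 1.31 per kb over 19128 3′ UTRs of protein-coding genes. UTRs at least as dense made up 0.04% of all for Csf2 and 1.35% for Csf3. Among UTRs within 20% of the same length, 0 of 1828 had as many copies as Csf2 and 36 of 2323 (1.55%) as many as Csf3. Csf1 held 4 copies, Csf1r 3 and Il34 1, and the other 4 receptor chains held none. The sites with the closest copies are shown from the GENCODE M21 transcripts, 5′ to 3′, with ATTTA in capitals, at UTR bases 239 to 259 of Csf2 and 32 to 53 of Csf3.
Csf2: ATTTATTTATTTATTTATTTA
Csf3: ATTTAtctctATTTAatATTTA

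**Figure D2:**
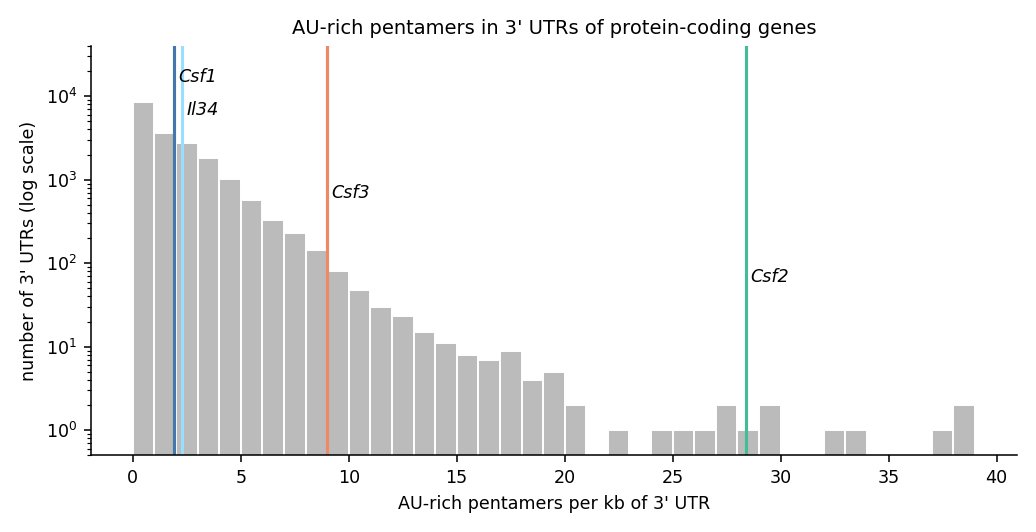
Number of 3′ UTRs (log scale) by AU-rich pentamers per kb, for 19128 UTRs of protein-coding genes in bins of 1 per kb, with lines for the 4 ligand genes. Csf2 at 28.39 and Csf3 at 8.97 lie far to the right of the median of 1.31, and Csf1 and Il34 lie near it.

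Csf1 (ENSMUSG00000014599, chr3:107741048-107760469, minus strand, GRCm38) encodes M-CSF, the principal survival factor of macrophages. It was at 22.5, 22.4 and 23.4 FPKM in WT (22.8 ± 0.523, SD, n = 3) and 17.3, 17.4 and 17.8 FPKM in KO (17.5 ± 0.224, SD, n = 3). Every KO library was below every WT library, with a KO to WT ratio of 0.77 and a fitted log2 difference of -0.36 (SE 0.03). Unlike Csf3 and Csf2, it remained well expressed in KO.

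Promoter sequences were found in RefSeq (GRCm38.p6) for 5 of the 9 genes, Csf1, Csf2, Csf2ra, Csf2rb2 and Csf3r. They span 250 bases before to 50 bases after the start and were searched on both strands for 6 motifs. NF-kB (GGGANNNNCC) was matched in Csf1, Csf2 and Csf3r, and in 20.7% of 32851 promoters. PU.1 (GAGGAA) was matched in Csf2ra, Csf2rb2 and Csf3r, and in 28.3%, and STAT (TTCNNNGAA) in Csf2rb2, and in 8.3%. AP-1 (TGANTCA, 7.8%), CK-1 (GAGATTCC, 0.9%) and the TATA box (TATAAA, 13.6%) were matched in none of the 5 windows. The Csf2 window follows the RefSeq start, and most of the region just before the GENCODE start lies outside it and was not searched. Those of 2 lower ligands and of the higher beta chain are shown 5′ to 3′ on the minus strand, with matches in capitals, at chr3:107760420-107760719, chr11:54249850-54250149 and chr15:78305672-78305971.
Csf1: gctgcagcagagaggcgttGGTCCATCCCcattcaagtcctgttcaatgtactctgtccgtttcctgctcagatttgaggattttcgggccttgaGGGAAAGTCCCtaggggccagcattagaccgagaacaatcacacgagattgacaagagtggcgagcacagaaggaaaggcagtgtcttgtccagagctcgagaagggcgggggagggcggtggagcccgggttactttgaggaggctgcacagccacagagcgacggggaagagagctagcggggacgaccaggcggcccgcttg
Csf2: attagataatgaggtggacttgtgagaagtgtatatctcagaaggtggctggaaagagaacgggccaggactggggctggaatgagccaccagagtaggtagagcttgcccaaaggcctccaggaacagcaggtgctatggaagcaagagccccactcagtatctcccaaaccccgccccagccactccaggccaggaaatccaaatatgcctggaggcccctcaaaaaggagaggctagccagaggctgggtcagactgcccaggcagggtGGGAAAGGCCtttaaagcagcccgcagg
Csf2rb2: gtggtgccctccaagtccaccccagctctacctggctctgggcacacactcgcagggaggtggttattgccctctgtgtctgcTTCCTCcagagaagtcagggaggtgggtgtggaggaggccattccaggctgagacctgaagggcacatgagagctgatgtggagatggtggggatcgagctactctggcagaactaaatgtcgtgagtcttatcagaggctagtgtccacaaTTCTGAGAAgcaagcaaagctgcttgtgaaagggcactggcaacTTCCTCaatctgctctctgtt
Csf1 held 3 NF-kB matches, of which those beginning 155 and 154 bases before the start overlap. The single match in Csf2 lay 22 bases after the RefSeq start, which is upstream of the GENCODE gene as placed above. A match is a run of letters and not a measured binding site.

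Il34 (ENSMUSG00000031750, chr8:110741829-110805924, minus strand, GRCm38) encodes the second ligand of CSF1R. It was at 1.29, 1.09 and 0.847 FPKM in WT (1.08 ± 0.224, SD, n = 3) and 1.47, 0.543 and 1.21 FPKM in KO (1.07 ± 0.477, SD, n = 3). The groups overlapped, with the highest and the lowest value both in KO, and the fitted log2 difference was -0.03 (SE 0.188). Leaving out single libraries moved it between -0.17 and 0.17, so it has no stable direction. Its exons overlap those of Gm15894 and Gm15895 on the opposite strand.

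Csf1r (ENSMUSG00000024621, chromosome 18, GRCm38), the tyrosine kinase receptor of both M-CSF and IL-34, was at 15.3, 15.4 and 15.9 FPKM in WT (15.5 ± 0.294, SD, n = 3). In KO it was at 20.3, 18.7 and 19.1 FPKM (19.4 ± 0.82, SD, n = 3). Every KO library was above every WT library, opposite to its ligand Csf1, with a ratio of 1.25 and a fitted log2 difference of 0.30 (SE 0.039). Of its 100-base transcript windows 16.82% also lie in Hmgxb3 on the opposite strand, which itself fell from 6.79 to 5.82 FPKM (adjusted p = 0.0159, limma, a call lost without WT replicate 1), so reads of the overlap are uncertain.

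Csf2ra (ENSMUSG00000059326, chr19:61223957-61228429, minus strand, GRCm38), the GM-CSF-specific alpha chain, was at 13.1, 11.6 and 17.0 FPKM in WT (13.9 ± 2.78, SD, n = 3). In KO it was at 11.3, 13.4 and 12.3 FPKM (12.3 ± 1.06, SD, n = 3). The groups overlapped, and WT replicate 3 stood above the rest. The fitted log2 difference was -0.15 (SE 0.135), and leaving out single libraries moved it between -0.26 and -0.00.

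Both beta chain genes were higher in KO. Csf2rb (ENSMUSG00000071713, chr15:78325752-78353847, plus strand, GRCm38) was at 12.95, 13.71 and 12.08 FPKM in WT (12.9 ± 0.814, SD, n = 3) and 20.57, 20.05 and 24.82 FPKM in KO (21.8 ± 2.62, SD, n = 3). Its KO to WT ratio was 1.69, with a fitted log2 difference of 0.71 (SE 0.088). Csf2rb2 (ENSMUSG00000071714, chr15:78282507-78305721, minus strand, GRCm38) was at 15.7, 15.7 and 16.1 FPKM in WT (15.9 ± 0.24, SD, n = 3) and 27.9, 28.7 and 27.6 FPKM in KO (28.0 ± 0.547, SD, n = 3). Its ratio was 1.77, with a fitted log2 difference of 0.78 (SE 0.029). Neither gene overlapped between the groups. The ratio of Csf2rb2 to Csf2rb was 1.15 to 1.34 in WT and 1.11 to 1.43 in KO libraries, so their proportion overlapped while their sum went from 28.2 to 29.4 FPKM in WT to 48.4 to 52.4 FPKM in KO.

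The beta chain genes are close copies, which limits how far reads can be assigned to 1 of them. Their coding sequences, of 2691 and 2637 bases, were identical at 95.2% of 2631 aligned bases, with a longest identical run of 242 bases. Of the 100-base windows of each transcript, 334 (6.96% for Csf2rb and 7.2% for Csf2rb2) occur in the other, so the separate values are uncertain where the counting could split such reads. Among 90-base coding windows aligned without gaps, the most divergent is shown from GENCODE M21, with its 16 mismatches in capitals. It lies at coding bases 308 to 397 of Csf2rb and 311 to 400 of Csf2rb2, where reads can tell the genes apart.
Csf2rb: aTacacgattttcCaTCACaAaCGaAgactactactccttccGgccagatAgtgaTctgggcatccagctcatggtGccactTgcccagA
Csf2rb2: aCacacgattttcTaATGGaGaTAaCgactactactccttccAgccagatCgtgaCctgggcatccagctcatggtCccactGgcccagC

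Csf3r (ENSMUSG00000028859, chr4:126024550-126044440, plus strand, GRCm38), the G-CSF receptor, was at 0.744, 0.574 and 0.546 FPKM in WT (0.621 ± 0.107, SD, n = 3). In KO it was at 0.283, 0.223 and 0.399 FPKM (0.302 ± 0.0893, SD, n = 3). Every KO library was below every WT library, with a ratio of 0.486, but the gene was under 1 FPKM throughout, missed the filter and overlapped between the groups after quantile normalization. Csf3r is abundant in neutrophils, and the summed neutrophil markers without Lcn2 and Mmp9 were also low in all libraries and lower in KO, as given above. The part of residual neutrophil RNA in Csf3r was not tested.

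**Figure D3:**
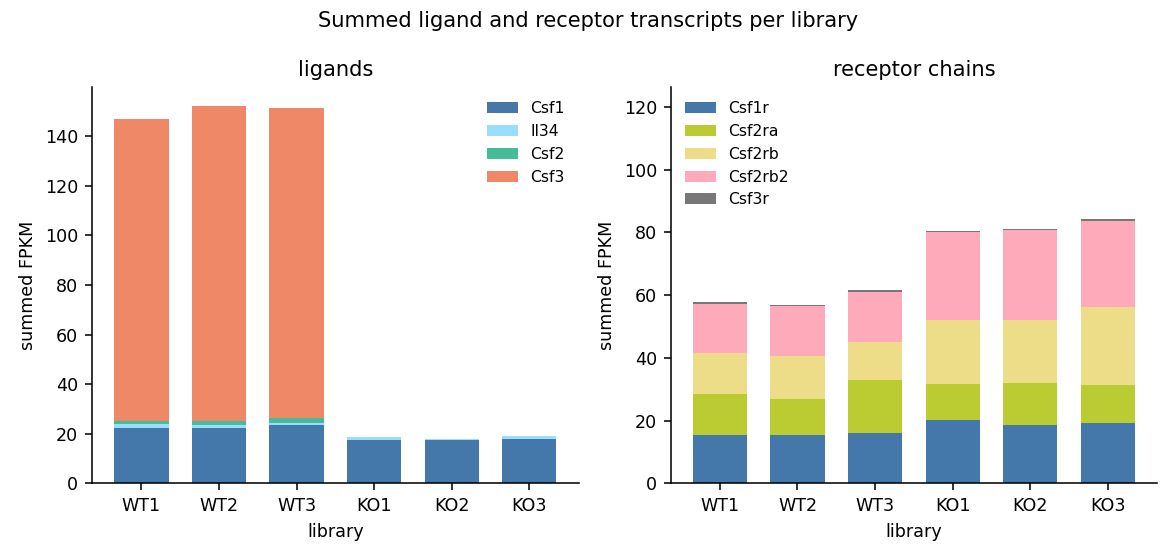
Stacked FPKM of the 4 ligands (left) and the 5 receptor chains (right) in each library, on axes that start at 0. Ligand sums were 147 to 152 FPKM in WT and 18.0 to 19.0 FPKM in KO, and receptor sums 57.1 to 61.7 FPKM in WT and 80.3 to 84.2 FPKM in KO.

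Summed per library, ligand transcripts were 147, 152 and 152 FPKM in WT and 18.8, 18.0 and 19.0 FPKM in KO. Receptor chains summed to 57.9, 57.1 and 61.7 FPKM in WT and 80.3, 81.1 and 84.2 FPKM in KO. The ligand to receptor ratio was thus 2.46 to 2.66 in WT and 0.222 to 0.234 in KO, without overlap, and this difference rests mainly on the listed zeros of Csf3. Csf3 made up 82.6% to 83.4% of the ligand sum in WT, and Csf1 made up 14.7% to 15.4% in WT and 92.2% to 97.0% in KO.

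The order of the genes by FPKM, which is per transcript length, also differed. In WT, Csf3 was followed by Csf1, then by Csf2rb2, Csf1r, Csf2ra and Csf2rb, whose ranges over the 3 libraries overlapped between neighbours in this order. Csf2 and Il34 came next, likewise with overlapping ranges, and Csf3r was lowest. In KO, Csf2rb2 came first, above Csf2rb and Csf1r, whose ranges overlapped. Csf1, Csf2ra, Il34 and Csf3r followed in that order, with ranges that did not overlap, and Csf3 and Csf2 were listed at 0.

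The wider pathway was described from 7 lists of genes, which were written with results of these data known. Counts are of genes tested, and calls are limma's adjusted p under 0.05 over all 11395 genes. Of 31 receptor-proximal signalling genes 8 rose and 14 fell, with a median log2 difference of 0.01 against 0.02 for all genes. Gab2, an adaptor that couples CSF receptors to PI3K, fell from 34.7, 33.8 and 35.4 to 19.5, 20.0 and 19.5 FPKM (-0.79, SE 0.029, adjusted p = 6.03e-06). Vav1, a guanine nucleotide exchange factor of blood cells, fell from 67.1, 65.8 and 64.3 to 33.3, 36.5 and 34.1 FPKM (-0.91, SE 0.039, adjusted p = 1.07e-05). Map2k1, the ERK kinase MEK1, fell by 0.42 on the log2 scale (SE 0.024, adjusted p = 3.63e-05).

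Among 15 tested STAT and ERK target and feedback genes 3 rose and 10 fell, with a median of -0.61. Socs3, a feedback inhibitor of G-CSF receptor signalling, fell from 14.1, 14.2 and 12.9 to 3.41, 3.31 and 3.60 FPKM (-1.73, SE 0.052, adjusted p = 2.7e-06). Pim1, a STAT-induced survival kinase, fell from 18.8, 18.1 and 17.2 to 6.69, 6.30 and 6.88 FPKM (-1.32, SE 0.049, adjusted p = 6e-06). Osm, an IL-6 family cytokine induced by STAT5, fell from 41.0, 37.7 and 37.5 to 16.0, 15.2 and 14.5 FPKM (-1.29, SE 0.051, adjusted p = 7.57e-06). For each of these genes the groups were fully separated.

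**Figure D4:**
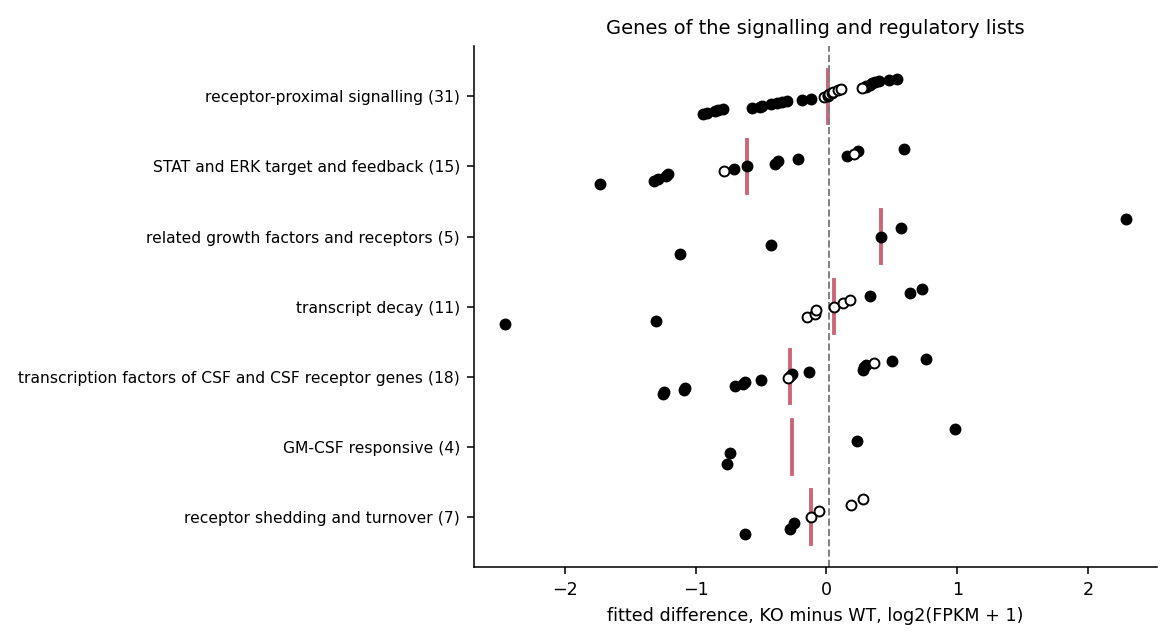
Fitted difference, KO minus WT, on the log2(FPKM + 1) scale for each tested gene (points) of 7 lists, with the number tested in brackets. Filled points were called at an adjusted p under 0.05 and open points were not, red bars are list medians, and the dashed line is the median of all genes tested (0.02). The STAT and ERK target list has the lowest median (-0.61).

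Of the 18 tested transcription factors known for CSF or CSF receptor genes 5 rose and 11 fell, with a median of -0.28. Nfkb2 fell from 35.5, 34.9 and 34.0 to 14.1 FPKM in all 3 KO libraries (-1.25, SE 0.028, adjusted p = 8.52e-07). Nfkb1 fell from 18.0, 19.4 and 18.7 to 7.61, 7.18 and 7.20 FPKM (-1.24, SE 0.042, adjusted p = 4.63e-06). Both encode NF-kB subunits and are themselves NF-kB targets. Cebpb, a factor of inflammatory and granulocytic genes, fell by 0.70 on the log2 scale (SE 0.036, adjusted p = 2.51e-05).

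The 11 transcript decay genes, which include regulators of AU-rich messages, split with 3 that rose, 2 that fell and 6 not called (median 0.06). Zc3h12a, the endonuclease Regnase-1, fell from 17.9, 18.8 and 17.4 to 2.33, 2.05 and 3.03 FPKM (-2.46, SE 0.103, adjusted p = 9.55e-06). Zfp36, the ATTTA-binding protein tristetraprolin, fell from 12.7, 12.7 and 13.2 to 4.92, 4.42 and 4.65 FPKM (-1.30, SE 0.046, adjusted p = 5.36e-06). Its relative Zfp36l2 moved the other way, from 29.0, 27.9 and 28.4 to 46.5, 48.9 and 48.3 FPKM (0.73, SE 0.03, adjusted p = 8.8e-06). On the TPM scale 3 rose and 3 fell.

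Of 19 related growth factors and receptors 5 averaged enough to be tested and 7 were listed at 0 in all 6 libraries, Il3 and Il5 among them. Of the 5, 3 rose and 2 fell (median 0.42), and without Epo, whose value is uncertain, 2 rose and 2 fell (median 0.00). Pdgfb, a platelet-derived growth factor chain, fell from 7.74, 7.54 and 7.13 to 2.70, 3.12 and 2.92 FPKM (-1.12, SE 0.059, adjusted p = 2.61e-05). Kitl, which encodes stem cell factor, rose from 7.91, 7.77 and 7.75 to 11.7, 12.3 and 12.2 FPKM (0.57, SE 0.035, adjusted p = 5.29e-05). Sdc1, syndecan-1, a described partner of IL-34, rose by 0.42 on the log2 scale (SE 0.051, adjusted p = 0.000994). Epo, named after its values were seen, was listed at 0 in WT and at 1.84, 5.75 and 5.11 FPKM in KO, so it passed the filter only through KO. Its exons overlap those of Gnb2 on the same strand.

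Only 4 of 14 GM-CSF-responsive genes were tested and 6 were listed at 0 in all libraries, with 2 that rose and 2 that fell (median -0.26), or 1 and 2 on the TPM scale. Itgax, the integrin CD11c, rose from 4.51, 4.18 and 4.19 to 9.59, 9.53 and 9.29 FPKM (0.98, SE 0.044, adjusted p = 1.25e-05). Fabp4, a fatty acid binding protein, fell by 0.74 on the log2 scale (SE 0.043, adjusted p = 4.07e-05), and Cd74, the MHC class II invariant chain, fell by 0.76 (SE 0.126, adjusted p = 0.00399).

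Of 7 tested genes of receptor shedding and turnover 0 rose and 3 fell (median -0.12), against a background of 24.5% rising and 18.8% falling. The share called, 42.9%, was near the 43.3% over all genes. Rhbdf2, which delivers the sheddase ADAM17 to the surface, fell from 11.9, 11.1 and 11.2 to 7.03, 7.50 and 6.67 FPKM (-0.62, SE 0.051, adjusted p = 0.000195). Cbl, the ubiquitin ligase of CSF1R, fell by 0.25 on the log2 scale (SE 0.048, adjusted p = 0.00715). Adam17, which sheds CSF1R, fell by 0.28 (SE 0.087, adjusted p = 0.0418), and this call was lost without WT replicate 1 or 2, without KO replicate 2 or 3, without the filter on low values and without the variance trend.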

How the data were processed

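Sorted microglia gave 6 RNA-seq libraries, 3 per neutrophil genotype, grouped by sample title. The authors deposited 1 table of FPKM values for 55335 Ensembl genes, without counts. The submitters' processing notes name fastp 0.17.1, HISAT2 2.1.0, DESeq2 1.18.1 and R 3.4.3. The quantification program, genome build and annotation are not given in the sources used here, and the labels and the study's methods name different library kits and sequencers. FPKM values are relative to each library's total, so a change in abundant transcripts shifts all others.

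Of the identifiers, 55154 were named from the gene table, and positions, transcripts and exons came from GENCODE M21 (GRCm38). Values were fitted as log2(FPKM + 1) with limma 3.58.1 in R 4.3.3 (lmFit, then eBayes with trend), KO minus WT, without covariates, for the 11395 genes averaging 1 FPKM or more across the 6 libraries. P-values were adjusted by Benjamini-Hochberg over these genes, with a threshold of 0.05. Differences on this scale understate the change of low genes. The script was tested on simulated data.

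Depth was estimated from steps between low values. The depth kept was the one with the highest share of low values within 0.05 of a whole number of steps. That share was 37.5% to 40.0%. By chance 10% would do so at a depth fixed in advance, so the excess is overstated by the search. Fragment numbers were not recovered and no count test was run.

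The members and lists were chosen with earlier results of these data known. All 9 members were named. Up to 3 genes per list with the smallest p were named, as were the neighbours and the 2 nearest genes in level and pattern of a fitted member that changed by more than 1 on the log2 scale. Alternatives were another pseudocount, filters, scalings, variance models, array weights, a replicate block and leaving out each library. The level of 1 microglia marker and the summed level of that list are not reported here.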

Additional observations from a re-analysis of the deposited data

How the results depend on the processing

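Over the alternatives, the counts of calls over all genes, in each list and among neighbours stayed within 1.5 times of those reported, except that 3 in place of 5 related growth factors and receptors were called among genes averaging 5 FPKM or more, where only 3 were tested. Neither Epo nor any gene named with an adjusted p changed direction under the alternatives in which it was tested. Genes called over all genes ranged from 3763 to 4931 with all 6 libraries and from 4082 to 4223 with 1 library left out. The filters changed the number tested, with 3763 called of 7383 at a mean of at least 5 FPKM. Without a filter 4504 of 25195 were called. Members without overlap numbered 7, or 6 after quantile normalization, where Csf3r overlapped. Deviations of same-numbered libraries from their group means correlated at -0.075, -0.052 and -0.005, so no shared deviation by replicate number was seen. These values cannot show whether the cultures were paired, which the sources do not say. With the replicate number as a block 4212 genes were called, 4026 of them also without the block. The block ended the call of Psmd3. On the TPM scale 54.9% of calls were lower in KO, against 43.4%, and the fitted log2 differences were -0.41 for Csf1, 0.25 for Csf1r and 0.74 for Csf2rb2. Unknown depth limits the low values of Csf2, Csf3r and Il34, and a count test (edgeR or DESeq2) was not run.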
